A study of Mus musculus with 170 samples.

Results

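The enzymes that conjugate foreign compounds and clear reactive aldehydes were followed through lung and heart in female mice of the outbred CD-1 stock that had aspirated particles from wildfire smoke. The set was taken by gene symbol from 6 families: the cytosolic glutathione S-transferases, the microsomal glutathione S-transferases, the UDP-glucuronosyltransferases, the sulfotransferases, the aldehyde dehydrogenases and the aldo-keto reductases. Of the 21450 symbols measured 61 matched and averaged at least 1 CPM (counts per 1e+06 reads) in lung or heart, and a further 42 matched but fell short of that level. The kept genes were 19 glutathione S-transferases, 3 microsomal ones, 5 glucuronosyltransferases, 6 sulfotransferases, 19 aldehyde dehydrogenases and 9 aldo-keto reductases. Just inside the limit lay Aldh8a1 with 1.12 CPM, Sult5a1 with 1.46 CPM and Sult2b1 with 1.57 CPM, and just outside it Aldh1a3 with 0.927 CPM, Gstm6 with 0.603 CPM and Akr1c18 with 0.499 CPM, each in the tissue where it was higher. Akr1c13 was not analysed here. Among the kept genes 44 averaged at least 1 CPM in both tissues, 15 in lung alone and 2, Aldh1l2 and Sult6b2, in heart alone.

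Each exposed mouse drew in 50 µL of saline with 2 mg/mL of particles from the back of the throat. The 10 smokes came from flaming and from smoldering fires of each of 5 fuels, namely eucalyptus, pine, pine needles, peat and red oak, and the other groups received bacterial lipopolysaccharide (LPS), at a dose not given in the labels used here, or saline alone. Lungs were collected 4 h or 24 h later, with 6 animals per smoke, 4 per LPS group and 6 per saline group. Hearts were taken at 24 h from 6 animals each after flaming and smoldering red oak, flaming and smoldering peat, and saline. All animals were females without any stated genetic change, and ages were not given in the labels used here. The particles reached the lung in liquid, so no group breathed smoke.

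The assay, TempO-Seq, counts short probes that anneal to known transcripts, so a level is a probe count scaled to CPM and cannot be compared between genes. The 140 lung and 30 heart libraries held 4.43 to 8.05 M counts each (median 6.59 M). The number of genes with a count was 9886 to 15644 in lungs and 13187 to 14329 in hearts. It was under 13000 in 6 lungs at 24 h: flaming red oak replicate 6, flaming peat replicate 3, flaming pine replicate 6, flaming eucalyptus replicate 5, smoldering pine replicate 4 and smoldering eucalyptus replicate 5. The titles number the smoldering animals before the saline animals and the flaming ones after them, so that burning phase and animal order cannot be told apart. Nearly all 4 h lungs were on plate 1, most 24 h lungs and all hearts on plate 2, and the lung fit carries a plate term. The exception was smoldering pine needles. At 4 h it had 5 of 6 lungs on plate 2, while all 6 saline lungs were on plate 1. At 24 h all 6 lungs of that smoke were on plate 1, while 5 of 6 saline lungs were on plate 2. Its differences from saline therefore lean on the plate term. Alveolar and club cell markers were at high counts in lungs and cardiomyocyte markers in hearts. Summed cardiomyocyte markers were 29100 to 35300 CPM in saline hearts and 248 to 1060 CPM in saline lungs at 24 h.

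In phase II metabolism a sugar acid, a sulfate or the tripeptide glutathione is joined to a foreign compound or its oxidised product, which makes it soluble and ready for export. Glutathione S-transferases also take up lipid aldehydes formed by oxidation, aldehyde dehydrogenases oxidise aldehydes to acids, and aldo-keto reductases reduce them to alcohols. In the airways club cells carry much of this metabolism, and the transcription factors Nrf2, which senses electrophiles, and AhR, the receptor for polycyclic aromatic hydrocarbons, drive many of these genes in other settings.

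The sequences shown are the 250 bases before the transcription start of members the lung results turn on, Akr1a1 and Gsto1, which rose after flaming relative to smoldering smoke, and Akr1b8, which rose after LPS, with Gsta3 as a member holding an antioxidant response element core. They are from RefSeq on mouse build GRCm38.p6, written 5′ to 3′ on the gene's strand with the motifs found in capitals. Akr1a1 lies on the minus strand at chr4:116651675-116651924, Gsto1 on the plus strand at chr19:47854723-47854972, Akr1b8 on the plus strand at chr6:34353896-34354145 and Gsta3 on the plus strand at chr1:21240335-21240584.
Akr1a1: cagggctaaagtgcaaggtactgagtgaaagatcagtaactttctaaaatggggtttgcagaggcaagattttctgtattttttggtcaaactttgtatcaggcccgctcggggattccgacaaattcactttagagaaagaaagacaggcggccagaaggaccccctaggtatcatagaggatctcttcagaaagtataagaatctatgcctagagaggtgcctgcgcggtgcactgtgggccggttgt
Gsto1: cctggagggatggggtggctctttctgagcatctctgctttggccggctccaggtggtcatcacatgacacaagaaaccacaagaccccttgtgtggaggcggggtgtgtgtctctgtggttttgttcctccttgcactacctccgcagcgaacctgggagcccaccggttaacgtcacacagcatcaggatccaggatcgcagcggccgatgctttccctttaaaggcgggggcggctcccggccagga
Akr1b8: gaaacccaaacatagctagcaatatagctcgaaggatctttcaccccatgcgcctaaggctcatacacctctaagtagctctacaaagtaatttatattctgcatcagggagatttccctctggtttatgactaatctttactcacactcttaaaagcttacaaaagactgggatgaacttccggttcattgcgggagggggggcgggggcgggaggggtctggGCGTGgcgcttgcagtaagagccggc
Gsta3: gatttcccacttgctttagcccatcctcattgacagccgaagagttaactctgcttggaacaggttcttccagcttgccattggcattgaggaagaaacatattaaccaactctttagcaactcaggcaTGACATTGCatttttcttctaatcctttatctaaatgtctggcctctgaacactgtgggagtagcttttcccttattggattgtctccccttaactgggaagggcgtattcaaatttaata
The antioxidant response element core TGACNNNGC, to which Nrf2 binds with its partners, was searched on both strands, as was GCGTG, the core at which AhR and its partner bind. In these windows Gsta3 held TGACATTGC and Akr1b8 held GCGTG, while Akr1a1 and Gsto1 held neither core. Of 32851 mouse promoters of this length 10.2% held the antioxidant core and 28.2% the AhR core, and 53 of the 61 members had an entry. The antioxidant core stood in 6 of the members' 63 promoters (9.52%), those of Aldh1a2, Aldh9a1, Gsta3, Gstm5, Gstm7 and Mgst1, and the AhR core in 17 (27%), shares close to those of all promoters.

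In lungs at 4 h no member passed the test in any single smoke. With edgeR's quasi-likelihood test, adjusted over the 14458 lung genes tested, 0 of 60 members were called at an adjusted p under 0.05 in each of the 10 smokes, where 0.0456% of all gene and smoke pairs were called. At an unadjusted p under 0.05 the smokes had 0 to 9 members, most after flaming pine needles and flaming eucalyptus, and DESeq2 made 4 calls over the 10 smokes. The same 6 saline lungs stand behind all 10 smokes, so the smokes' differences from saline are not independent of each other. The heat map gives every tested member in every lung group.

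**Figure D1:**
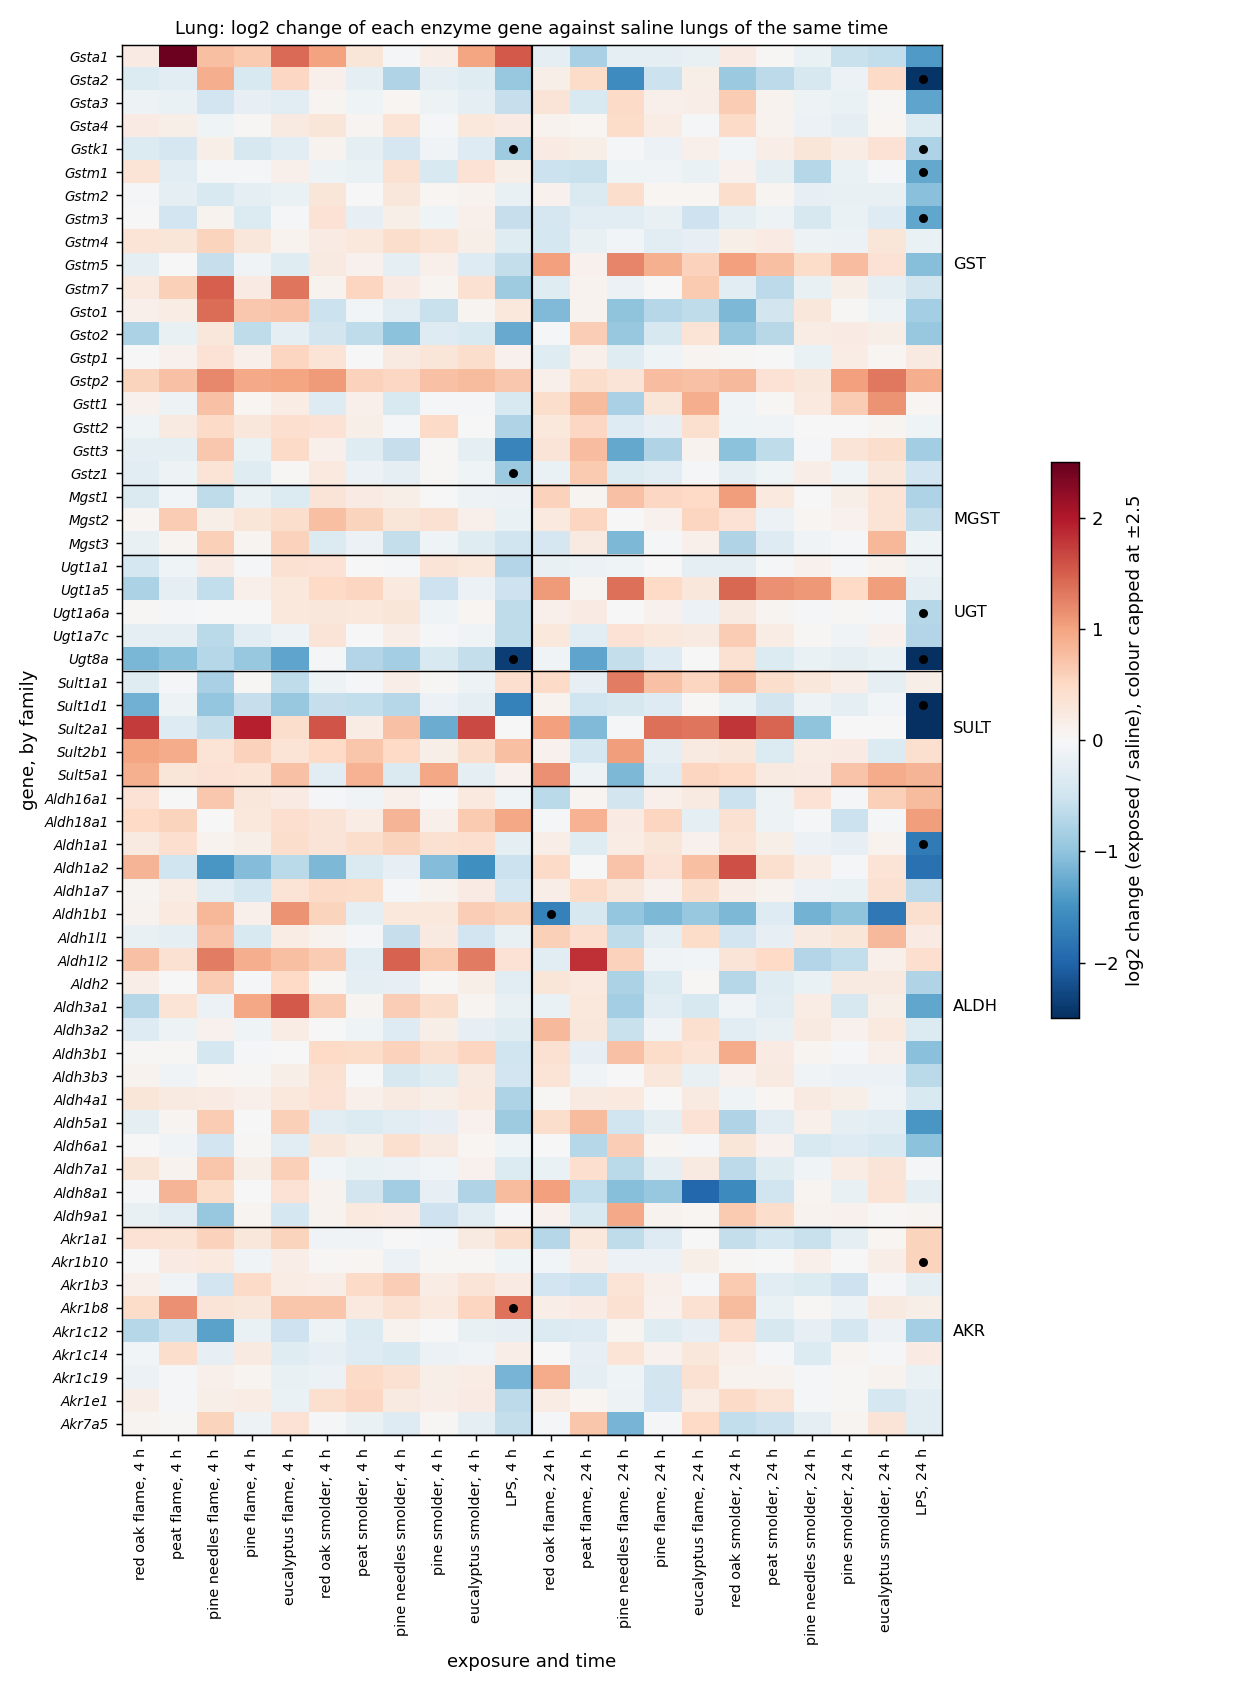
Log2 difference from saline (colour, capped at ±2.5) of the 60 tested members (rows, by family) in lungs at 4 h and 24 h, with each smoke and LPS as columns and dots where the edgeR adjusted p was under 0.05. Dots fall in the LPS columns and on Aldh1b1 after flaming red oak at 24 h.

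The glutathione S-transferase with the largest 4 h difference in any smoke was Gsta1, an alpha class enzyme that takes up products of lipid peroxidation. After flaming peat Gsta1 had 2.63, 6.03 and 18.7 CPM (lowest, median and highest of 6 lungs), against 0.314, 1.05 and 4 CPM in saline lungs. In 4 of the 6 exposed lungs it lay above every saline lung. The log2 difference was 2.46 ± 0.63 (SE) with an edgeR adjusted p of 0.0538, a miss of the threshold. Saline replicate 1 held the value of 4 CPM, and without it the difference was 3.12 with an adjusted p of 0.00986. DESeq2 gave an adjusted p of 0.00861. The transcripts of Gsta1 share 46.6% of their 50-base windows with Gsta2, so that counts could be split between the pair.

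Genes that Nrf2 drives or that supply glutathione rose after the same flaming peat, 6 of 12, where 0.297% of all genes were called. Hmox1, which degrades heme, rose by 3.56 ± 0.55 on the log2 scale (adjusted p 9.9e-06), and Srxn1, which repairs peroxiredoxins, by 2.13 ± 0.33 (9.9e-06). Txnrd1, thioredoxin reductase, rose by 1.37 ± 0.22 (1.05e-05). Gclc and Gclm, the subunits of the enzyme that starts glutathione synthesis, and Slc7a11, the cystine importer, were the others. Flaming eucalyptus had 2 of these 12 called, Txnrd1 and Gclm.

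Aldh3a1, an aldehyde dehydrogenase for aromatic and lipid aldehydes that AhR drives in other settings, was highest after flaming eucalyptus. It had 20.7, 97 and 215 CPM there, against 18.4, 33.2 and 54.9 CPM in saline lungs, and 5 of the 6 exposed lungs lay above every saline lung. The means were 103.5 ± 62.8 CPM and 35.6 ± 12.8 CPM (SD, n = 6 each), a log2 difference of 1.53 ± 0.41 with an adjusted p of 0.115. It was called by DESeq2 (adjusted p 0.0477), without saline replicate 1 (0.0446), and in 4 other edgeR fits, among them that of the 4 h lungs alone (0.0354). Flaming pine had 33.2, 65.2 and 106.8 CPM, a difference of 0.96 ± 0.40. Flaming red oak lay lowest, with 10.6, 16.6 and 42.3 CPM. The remaining smokes had medians of 30.1 CPM (flaming pine needles) to 47.4 CPM (smoldering pine needles). A test among the 10 smokes, which uses no saline library, called Aldh3a1 as its single member at 4 h (edgeR adjusted p 0.00466), with 0.609% of all genes called.

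In flaming eucalyptus, where 0.0899% of genes were called, 3 of 6 AhR pathway genes rose. Cyp1a1, the cytochrome that oxidises polycyclic hydrocarbons, averaged 548 CPM in exposed lungs and 11.9 CPM in saline lungs, a log2 rise of 5.51 ± 0.56 (adjusted p 8.41e-13). Cyp1b1 rose by 2.92 (3.5e-05) and the quinone reductase Nqo1 by 2.45 (0.00216). After flaming pine Cyp1a1 was the single AhR gene called.

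Akr1b8, an aldo-keto reductase of lipid aldehydes and retinaldehyde, lay above saline on average in all 10 smokes at 4 h, with log2 differences of 0.25 to 1.15. The largest followed flaming peat, with 52.5, 90 and 140 CPM, against 28.2, 43.2 and 54.3 CPM in saline lungs. There 5 of 6 lungs exceeded every saline lung, and the difference of 1.15 ± 0.34 had an adjusted p of 0.171. The mean of the 10 smokes differed from saline by 0.50 ± 0.26 (adjusted p 0.973). The pi class enzyme Gstp2 also lay above saline on average in all 10 smokes, by 0.51 to 1.2 at 4 h and by 0.12 to 1.32 at 24 h. Flaming pine needles had 4.34, 7.93 and 11.4 CPM of Gstp2 at 4 h, against 0.572, 3.64 and 5.34 CPM in saline lungs. Gstp2 was called there by edgeR with that covariate (adjusted p 0.032), in the 4 h lungs alone (0.0293) and in the plate 1 lungs of 4 h (0.0364). DESeq2 did not call it (0.209). Its mean over the 10 smokes differed by 0.81 ± 0.29 at 4 h (adjusted p 0.642) and by 0.62 ± 0.29 at 24 h (adjusted p 1). The transcripts of Gstp2 share 49.1% of their 50-base windows with Gstp1, so counts could be split between them.

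Gsto1, an omega class transferase that reduces dehydroascorbate and arsenic compounds, had a control library far from the others. After flaming pine needles it had 31.8, 149 and 204 CPM, against 21, 27.1 and 180 CPM in saline lungs. Saline replicate 1 held the 180 CPM and the other 5 saline lungs were at or below 29.8 CPM. The log2 difference of 1.40 ± 0.51 had an adjusted p of 0.345 with that library and was 2.39 with an adjusted p of 0.0211 without it. The library also stood high for Gsto2 and Gstz1. The plot of single lungs at 4 h shows it.

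**Figure D2:**
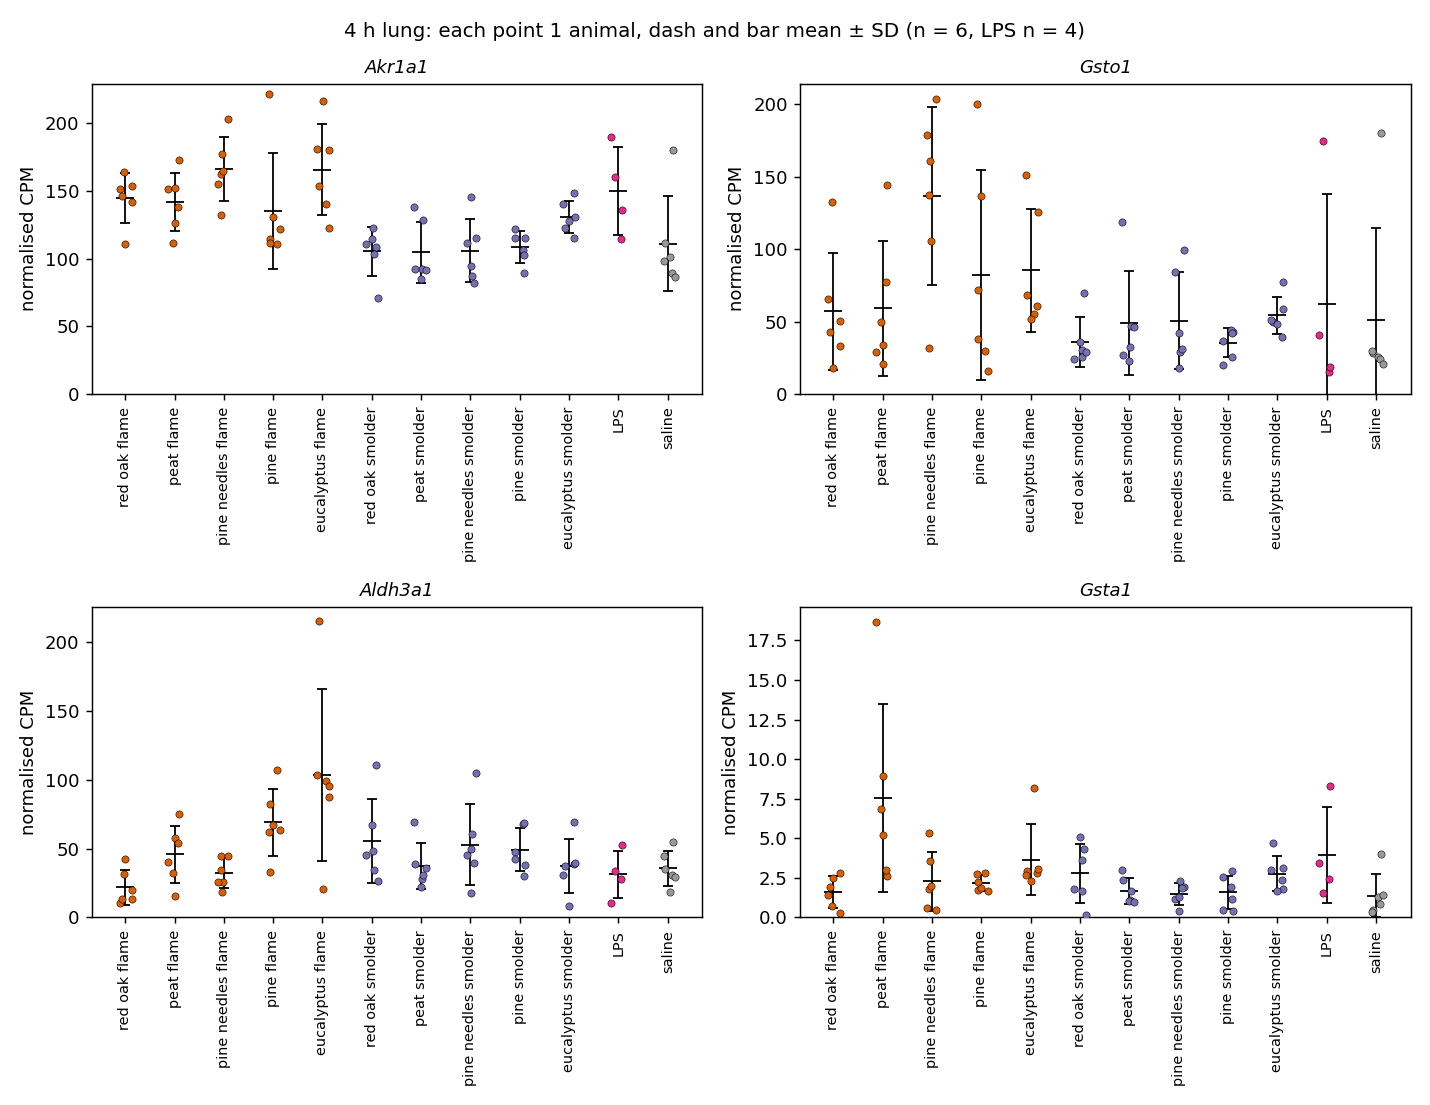
CPM per animal (points) in lungs at 4 h for Akr1a1, Gsto1, Aldh3a1 and Gsta1, with the flaming and smoldering smokes first, then LPS and saline last, and a dash and bar for mean ± SD (n = 6, LPS n = 4). Saline replicate 1 is the high saline point for Gsto1 at 180 CPM, and flaming eucalyptus reaches 215 CPM for Aldh3a1.

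The other members with the smallest p in a smoke at 4 h stayed well short of the threshold, with adjusted p of 0.939 or more. They were Mgst2, a leukotriene C4 forming enzyme, with log2 differences of 0.76 after smoldering red oak and 0.56 after smoldering peat, and Sult1d1, a phenol sulfotransferase, with −1.21 after flaming red oak. The ceramide galactosyltransferase Ugt8a had −1.15 after flaming red oak, and the retinaldehyde dehydrogenase Aldh1a2 −1.54 after smoldering eucalyptus. The kappa enzyme Gstk1 and the omega enzyme Gsto2 had −0.42 and −1.03 after smoldering pine needles, and the theta enzyme Gstt2 had 0.47 after smoldering pine. Within plate 1, which holds 1 smoldering pine needles lung at 4 h, Gstk1 and Gsto2 differed by −0.2 and −0.42. Mgst2 after smoldering peat was above every saline lung in 6 of 6 animals.

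Over the mean of the 10 smokes at 4 h the members' median log2 difference was 0.07, with a range of −0.77 to 0.81. Neither edgeR nor DESeq2 called a member (edgeR called 0% of all genes), and 2 had an unadjusted p under 0.05. The following members of 4 families were not called either. Gstp1, the main pi class enzyme of lung, averaged 587 ± 145 CPM in 60 exposed lungs and 486 ± 141 CPM in 6 saline lungs. Gstm3, of the mu class, averaged 477 ± 147 CPM and 483 ± 98.5 CPM. Mgst1, a membrane-bound transferase and peroxidase, had 431 ± 141 CPM after smoke and 455 ± 90.4 CPM after saline. Ugt1a7c, which glucuronidates phenols, had 79.9 ± 24.7 CPM and 84.7 ± 15.7 CPM, and Sult1a1, the main phenol sulfotransferase, 101.5 ± 41.3 CPM and 113.5 ± 60.3 CPM in exposed and saline lungs.

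Burning phase was asked without any saline library, by setting the 30 flaming lungs against the 30 smoldering lungs at 4 h. In that comparison 2.39% of all genes were called, and 2 of 60 members rose while 0 fell. Akr1a1, an aldehyde reductase that also makes the ascorbate precursor in mice, had 110.8, 151 and 222 CPM in flaming lungs, against 71, 113.1 and 148 CPM in smoldering lungs. In 16 of 30 flaming lungs it lay above every smoldering lung. The difference was 0.43 ± 0.10 with an edgeR adjusted p of 0.00757. Gsto1 averaged 84.1 ± 58 CPM (median 63.2 CPM) in flaming lungs, against 45.1 ± 23.9 CPM (median 40.9 CPM) in smoldering lungs (SD, n = 30 each). The ranges overlapped, with 10 of 30 flaming lungs above every smoldering lung and 1 below, and the difference was 0.90 ± 0.23 (adjusted p 0.0177).

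Akr1a1 and Gsto1 were called under every alternative run, and the number of members called was larger under some. It was up to 8 of the members tested when the 4 h lungs were fitted alone. The share of 2.39% of all genes belongs to the main fit and not to these fits. Saline lungs at 4 h had 86.1, 99.6 and 180 CPM of Akr1a1, nearer to the smoldering lungs. The 5 glucuronosyltransferases all lay lower after flaming than after smoldering smoke (median log2 difference −0.37), and none of them was called. Ugt1a1, Ugt1a5, Ugt1a6a and Ugt1a7c share the last exons of a single locus. Counts may be split among them, so their shared direction is not independent. In the same comparison 2 of 6 AhR genes rose, Cyp1a1 by 1.51 (adjusted p 2.05e-06) and Cyp1b1, and 3 of 12 Nrf2 and glutathione genes, Hmox1 by 1.16 (0.00139), Txnrd1 and Srxn1. The ciliated cell gene Sntn was lower after flaming smoke, 1 of 7 markers of that cell, and its part in these results was not tested.

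At 24 h the phase difference was not detectable in any member. With 0.111% of genes called, edgeR called 0 of 60 members, DESeq2 called 0 and 1 had an unadjusted p under 0.05. Akr1a1 averaged 151 ± 56.5 CPM in flaming lungs and 141 ± 44.8 CPM in smoldering lungs (n = 30 each). Gsto1 averaged 74.1 ± 47.5 CPM in flaming lungs and 95.5 ± 55.1 CPM in smoldering lungs.

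Among the smokes at 24 h a single member met the threshold. Aldh1b1, a mitochondrial aldehyde dehydrogenase that oxidises acetaldehyde and lipid aldehydes, had 0, 4.64 and 9.2 CPM after flaming red oak, against 7.45, 17.1 and 22.4 CPM in saline lungs. In 5 of the 6 exposed lungs it was below every saline lung. The means were 4.62 ± 2.98 CPM and 16 ± 5.99 CPM, a log2 fall of −1.68 ± 0.48 (edgeR adjusted p 0.0379), with 1.75% of all genes called in that smoke and 0.187% over the 10 smokes. The lung at 0 was replicate 6, which had the fewest detected genes of all libraries. Without the lungs of few detected genes the difference was −1.51 with an adjusted p of 0.273, and leaving out saline replicate 2, 3, 4 or 5 also ended the call (adjusted p 0.0578 to 0.106).

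Aldh1b1 lay below saline on average after each of the 10 smokes at 24 h. The log2 differences ran from −0.32 after smoldering peat to −1.78 after smoldering eucalyptus, where the lungs had 1.31, 5.11 and 6.61 CPM and 6 of 6 lay below every saline lung (adjusted p 0.479). The medians of the other smokes were 5.56 CPM (smoldering pine needles) to 11.4 CPM (smoldering peat). Over all 60 exposed lungs Aldh1b1 had 0, 6.46 and 29.8 CPM, and 33 of the 60 lay below every saline lung. The mean of the 10 smokes differed from saline by −1.06 ± 0.31, with an edgeR unadjusted p of 0.000929 and an adjusted p of 1. At 4 h the same probe showed 3.9, 10.5 and 29.8 CPM in exposed lungs, against 3.45, 6.34 and 23.1 CPM in saline lungs, with smoke differences of −0.25 to 1.12. LPS lungs at 24 h had 14.7, 17.4, 18.8 and 32.9 CPM, a difference of 0.41 (adjusted p 0.687).

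The remaining 24 h differences did not pass in the main fit. In the other 9 smokes edgeR called 0 members, DESeq2 made 8 calls over the 10 smokes, and 1 to 12 members per smoke had an unadjusted p under 0.05. Flaming pine needles and smoldering red oak had the most. Akr1a1 differed by −0.71 after flaming red oak (adjusted p 0.0683) and by −0.63 after flaming pine needles (0.166), and Akr7a5, a reductase of succinic semialdehyde, by −1.16 after flaming pine needles (0.167). Without the lungs of few detected genes edgeR called Akr1a1 and Akr7a5 after flaming pine needles (adjusted p 0.0395 and 0.0343). Over the mean of the 10 smokes the members' median was 0.03, none was called by edgeR or DESeq2, 3 had an unadjusted p under 0.05, and 0.00692% of all genes were called. The difference of the mean smoke effects between 24 h and 4 h called 0 of 60 members with edgeR or DESeq2 and 0% of all genes, and 2 members had an unadjusted p under 0.05.

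The 10 smokes differed among themselves at 24 h in 11 members, against 18% of all genes, so the share of members matched the background. These were Akr1a1, Akr7a5, Aldh2, Aldh3a2, Aldh7a1, Aldh16a1, Gstt1, Gstt2, Gstt3, Gstz1 and Mgst3. Akr1a1 averaged 213 CPM after flaming peat, 108.1 CPM after flaming red oak and 178 CPM after saline (edgeR adjusted p among the smokes 0.00115). Gstt3, a theta class enzyme, averaged 311 CPM after flaming peat, 78.2 CPM after flaming pine needles and 197 CPM after saline (0.0053). Aldh3a2, the fatty aldehyde dehydrogenase, averaged 205 CPM after flaming red oak, 80 CPM after flaming pine needles and 120 CPM after saline (0.00857). With detected genes added to the fit as a covariate 0 members were called, and with the 24 h lungs fitted alone 0 were called.

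LPS, the inflammatory stimulus of the study, had more called members in lung than any single smoke at the same time. It also had more called genes of all kinds, 1298 of 14458 at 4 h, beside 4 of 60 members. Most of the called members were lower. At 4 h 1 member rose and 3 fell of 60, where 5.48% of all genes rose and 3.49% fell. The members' median log2 difference was −0.29, with 43 negative and 17 positive, beside a median of −0.04 over all genes, and 12 members had an unadjusted p under 0.05. At 24 h 1 member rose and 8 fell, where 7.58% of genes rose and 4.51% fell. The median was then −0.42, with 44 negative and 16 positive, beside −0.12 over all genes. In these whole lungs fewer cells of a type and less RNA per cell cannot be told apart.

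The transferases of glutathione made up 2 of the 3 falls at 4 h and 4 of the 8 at 24 h. They were 19 cytosolic and 3 microsomal genes of the 60 members tested. Gstk1, the kappa class enzyme of mitochondria and peroxisomes, had 79.2, 85, 123.9 and 155 CPM in the 4 LPS lungs at 4 h, against 163, 192 and 272 CPM (lowest, median and highest) in saline lungs. All 4 LPS lungs lay below every saline lung, and the difference was −0.89 ± 0.22 (edgeR adjusted p 0.00232). At 24 h Gstk1 had 89.7, 94.5, 129.4 and 148 CPM after LPS, against 138.2, 199 and 256 CPM after saline. There 3 of the 4 lay below every saline lung, and the difference was −0.77 ± 0.22 (0.00784). Gstk1 was the glutathione S-transferase called at both times.

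Gstz1, a zeta class enzyme that isomerises maleylacetoacetate in tyrosine breakdown, had 33.5, 36.9, 55.8 and 55.9 CPM at 4 h after LPS, against 60.5, 70.6 and 174 CPM after saline. The groups did not overlap, and the difference was −0.92 ± 0.29 (adjusted p 0.0308). Saline replicate 1 held the 174 CPM, and without it the difference was −0.59 with an adjusted p of 0.267. The call also ended without LPS replicate 2 or 3 (adjusted p 0.135 and 0.161) and with each probe tested alone (0.0616). Gsta1 had 1.57, 2.44, 3.45 and 8.31 CPM at 4 h after LPS, against 0.314, 1.05 and 4 CPM after saline, and was not called (1.53, adjusted p 0.17).

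At 24 h the mu class enzymes Gstm3 and Gstm1 and the alpha class enzyme Gsta2 were also lower. Gstm3 had 137.7, 165, 260 and 261 CPM after LPS, against 371, 540 and 546 CPM after saline. It was below every saline lung in 4 of 4 animals, with a difference of −1.30 ± 0.28 (adjusted p 0.000226). Gstm1 had 15.8, 20.2, 21.1 and 29.2 CPM after LPS, against 31.1, 52.7 and 81.3 CPM after saline, again without overlap (−1.27 ± 0.42, adjusted p 0.0296). Gsta2 had 1.79, 3.74, 6.9 and 6.99 CPM after LPS, against 5.79, 26.1 and 69.5 CPM after saline. Only 2 of the 4 lay below every saline lung, and the saline lungs themselves spread widely (−2.46 ± 0.69, adjusted p 0.00802). Not called were Gsta3 with 111.2 ± 51.1 CPM after LPS and 277 ± 117.1 CPM after saline (−1.31 ± 0.53, adjusted p 0.0932), and Gstp1 with a difference of 0.23 (0.649). Over the 19 cytosolic glutathione S-transferases the median difference was −0.85 at 24 h and −0.57 at 4 h. The 3 microsomal ones had medians of −0.59 and −0.17 and no call.

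Among the glucuronosyltransferases Ugt8a, which makes galactosylceramide rather than drug conjugates, was lower at both times. It had 0.45, 0.872, 0.976 and 1.85 CPM at 4 h after LPS, against 3.58, 5.48 and 6.27 CPM after saline (−2.35 ± 0.68, adjusted p 0.0132), a call that ended without LPS replicate 2 (−2.09, adjusted p 0.0824). At 24 h it had 0, 0.356, 0.964 and 1.08 CPM after LPS, against 1.95, 2.86 and 9.29 CPM after saline (−2.58 ± 0.74, 0.00923). The groups did not overlap at either time, though the counts were low. Ugt1a6a, which glucuronidates planar phenols, had 21.7, 25, 25.9 and 27.7 CPM at 24 h after LPS, against 35.2, 40.8 and 48 CPM after saline. The groups did not overlap, and the difference was −0.71 ± 0.23 (0.027). The genes of the Ugt1a locus share their last exons, so counts may be split among them.

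Of 5 sulfotransferases 1 was called. Sult1d1 had 1.45, 1.53, 2.85 and 3.88 CPM at 24 h after LPS, against 4.06, 8.85 and 37.6 CPM after saline, without overlap (−2.49 ± 0.71, adjusted p 0.00852). At 4 h its difference was −1.69 (0.0912). Sult1a1 differed by 0.14 at 24 h and was not called.

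The aldehyde dehydrogenases had 1 fall among 19 at 24 h, and 0 were called by edgeR at 4 h (median log2 difference −0.24). Aldh1a1, which makes retinoic acid from retinaldehyde, had 4.85, 8.44, 10.5 and 10.6 CPM at 24 h after LPS, against 17.8, 28.6 and 39.5 CPM after saline. All 4 LPS lungs lay below every saline lung (−1.77 ± 0.48, adjusted p 0.00588). Its near copy Aldh1a7 differed by −0.65 (0.564), Aldh3a1 by −1.29 (0.0602) and Aldh2, the mitochondrial enzyme for acetaldehyde, by −0.75 (0.222).

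The rises were those of single aldo-keto reductases, Akr1b8 at 4 h and Akr1b10 at 24 h. Of the 9 tested in that family 4 had positive and 5 negative differences at 4 h, with a median log2 difference of −0.1. Akr1b8 had 80.8, 83.6, 96.1 and 184 CPM at 4 h after LPS, against 28.2, 43.2 and 54.3 CPM after saline. All 4 LPS lungs exceeded every saline lung, and the difference was 1.36 ± 0.37 (adjusted p 0.00706), or 1.01 with an adjusted p of 0.111 without LPS replicate 4. At 24 h Akr1b8 differed by 0.15 (0.879). Its relative Akr1b10 had 130.2, 138.1, 139.04 and 152 CPM at 24 h after LPS, against 75.8, 91.1 and 142 CPM after saline. The saline lungs reached into the LPS range, with 1 LPS lung above all of them, and the difference was 0.55 ± 0.18 (0.0267).

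**Figure D3:**
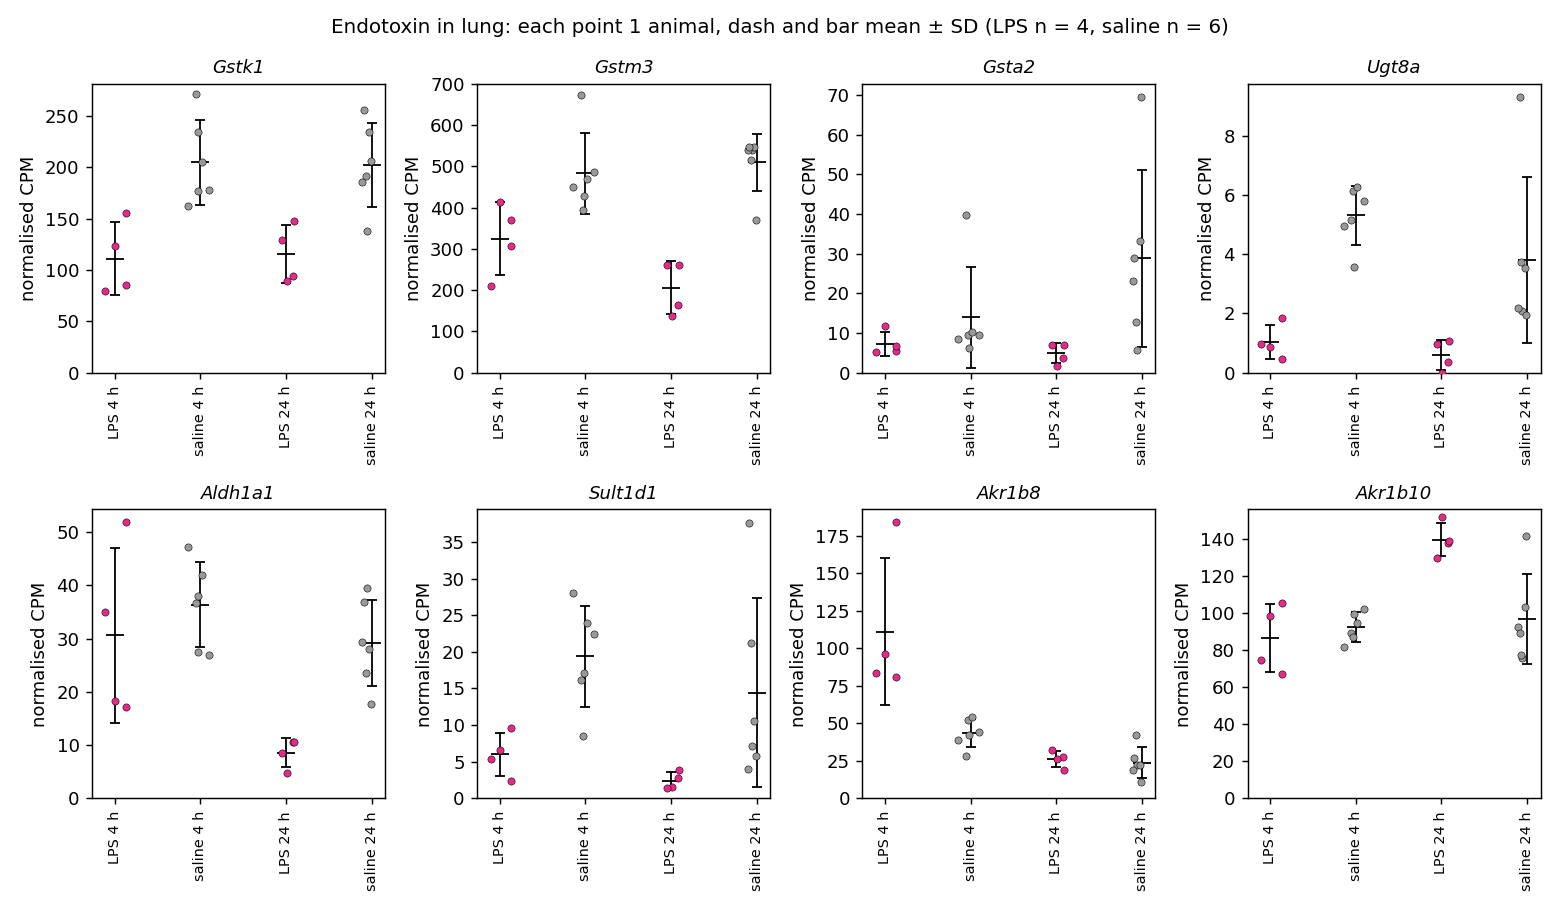
CPM per animal (points) for 8 members in LPS and saline lungs at 4 h and 24 h, with LPS left of saline and a dash and bar for mean ± SD (LPS n = 4, saline n = 6). LPS and saline points do not overlap for Ugt8a at either time, for Gstm3, Aldh1a1 and Sult1d1 at 24 h, or for Gstk1 and Akr1b8 at 4 h.

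The 24 h calls leaned on single libraries and on the fit. Without LPS replicate 2 Gstm3 stayed called (−1.13, adjusted p 0.00998) and the other 8 were not, with Gstk1 at 0.106 and Aldh1a1 at 0.0574, though every direction was kept. The Gstm1 call also ended without LPS replicate 1 or 4 (0.149 and 0.0564) or saline replicate 1, 3 or 4 (0.0501 to 0.0539). The Akr1b10 call ended without LPS replicate 1 (0.0678) or saline replicate 1, 5 or 6 (0.0581 to 0.0709), and that of Ugt1a6a without LPS replicate 1 or 3 (0.118 and 0.0515) or saline replicate 6 (0.0633). Without saline replicate 5 Ugt8a had an adjusted p of 0.0514 and Sult1d1 of 0.056. With the 24 h lungs fitted alone Gstm1, Ugt8a, Ugt1a6a, Sult1d1 and Aldh1a1 were not called (0.0586 to 0.116). With only the 1 plate that holds most libraries of each time 0 members were called, Gstm3 having an adjusted p of 0.0571.

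Other genes of aldehyde and conjugation metabolism fell in the same lungs. At 24 h 5 of 14 other aldehyde and alcohol enzymes were lower, led by Cbr1, a carbonyl reductase, with −1 (adjusted p 7.37e-05), Adh7, a retinol and alcohol dehydrogenase, with −3.91 (0.00113), and the aldehyde oxidase Aox3 with −1.20 (0.00649). Of 10 other conjugating enzymes 2 were lower, the epoxide hydrolase Ephx1 with −1.43 (8.08e-06) and the methyltransferase Inmt with −1.24 (0.0163). The Nrf2 and glutathione genes went the other way, with 4 of 12 higher at 4 h and 3 of 12 at 24 h. The cystine importer Slc7a11 rose by 4.25 at 4 h (3.5e-06) and 4.29 at 24 h (4.23e-06).

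Cell type markers moved in the same LPS lungs. At 24 h 4 of 7 club cell markers were lower, among them Scgb3a2 by −3.04 (adjusted p 1.47e-09) and Scgb1a1 by −0.90 (0.0446). The summed club markers were 10400 to 23200 CPM after LPS (median 17400) and 22000 to 52000 CPM after saline (median 33200). Summed ciliated markers were 182 to 331 CPM after LPS and 571 to 972 CPM after saline, with 2 of 7 lower, and no club or ciliated marker was at 0. All 6 neutrophil markers were higher, with sums of 338 to 525 CPM after LPS and 20.3 to 51.6 CPM after saline. At 4 h club sums were 18200 to 45200 CPM after LPS and 35500 to 71300 CPM after saline, with 0 of 7 called by edgeR and 4 at an unadjusted p under 0.05. Ciliated sums at 4 h were 396 to 707 CPM after LPS and 792 to 1290 CPM after saline, without overlap, and 2 of 7 markers were lower. Neutrophil sums at 4 h were 327 to 1330 CPM after LPS and 47.5 to 85.7 CPM after saline. Cardiomyocyte markers were lower in 4 of 6 at 24 h. Alveolar type 2 markers were called in 0 of 7 by edgeR at 24 h, with 0 at an unadjusted p under 0.05. The part of these cells in the enzyme differences was not tested.

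In hearts 5 member calls were made over the 4 smokes, where 4.09% of all gene and smoke pairs were called. Flaming red oak had 1 rise and 3 falls among 46 members, where 5.33% of genes rose and 6.69% fell. Gsto1 had 5.77, 12.7 and 17 CPM in these hearts, against 14.5, 22.7 and 34.7 CPM in saline hearts. It lay below every saline heart in 5 of 6 (−0.94 ± 0.21, edgeR adjusted p 0.00492). Gsta4, the alpha class enzyme for 4-hydroxynonenal, had 61.5, 69 and 74.4 CPM after flaming red oak, against 72.8, 86.6 and 95.5 CPM after saline. It too was below every saline heart in 5 of 6, with a small difference of −0.33 ± 0.09 (0.0152).

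Gstm5, a mu class enzyme, had 24.4, 27.8 and 32.9 CPM in hearts after flaming red oak, against 31.1, 38.4 and 45 CPM after saline (−0.44 ± 0.14, adjusted p 0.0358). The single rise was that of Aldh3a2, with 13.9, 15.4 and 16.6 CPM after flaming red oak, against 8.18, 9.85 and 15.1 CPM after saline (0.50 ± 0.14, 0.0187). Its ranges overlapped, with 3 of 6 above every saline heart, and leaving out saline replicate 2 or 4 ended the call (0.0526 and 0.0596). The Gstm5 call ended without saline replicate 1, 2 or 6.

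Aldh1b1, the gene that was lower in lung after the same smoke, had 36.6, 51.6 and 125.5 CPM in hearts after flaming red oak, against 31.5, 34.1 and 36.4 CPM after saline. All 6 exposed hearts lay above every saline heart, and the difference of 0.81 ± 0.28 had an edgeR adjusted p of 0.0548 and a DESeq2 adjusted p of 0.0295. Flaming peat hearts had 35.6, 46.9 and 51.6 CPM, smoldering red oak hearts 18.1, 34.5 and 41.9 CPM and smoldering peat hearts 29.3, 41.4 and 108.1 CPM.

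After smoldering peat 1 of 46 members was called, where 4.29% of genes were. Mgst3, a microsomal transferase with peroxidase activity, had 38.9, 45.5 and 73.9 CPM, against 59.3, 91.3 and 102.7 CPM in saline hearts. It lay below every saline heart in 5 of 6 (−0.81 ± 0.22, adjusted p 0.0353), and leaving out any of saline replicates 1 to 4 ended the call (0.0606 to 0.0773). Flaming peat had 0 called members by edgeR and 3 at an unadjusted p under 0.05, with 0.0447% of genes called. Smoldering red oak had 0 called members by edgeR and 5 at an unadjusted p under 0.05, with 0% of genes called. DESeq2 made 8 calls over the 4 smokes.

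**Figure D4:**
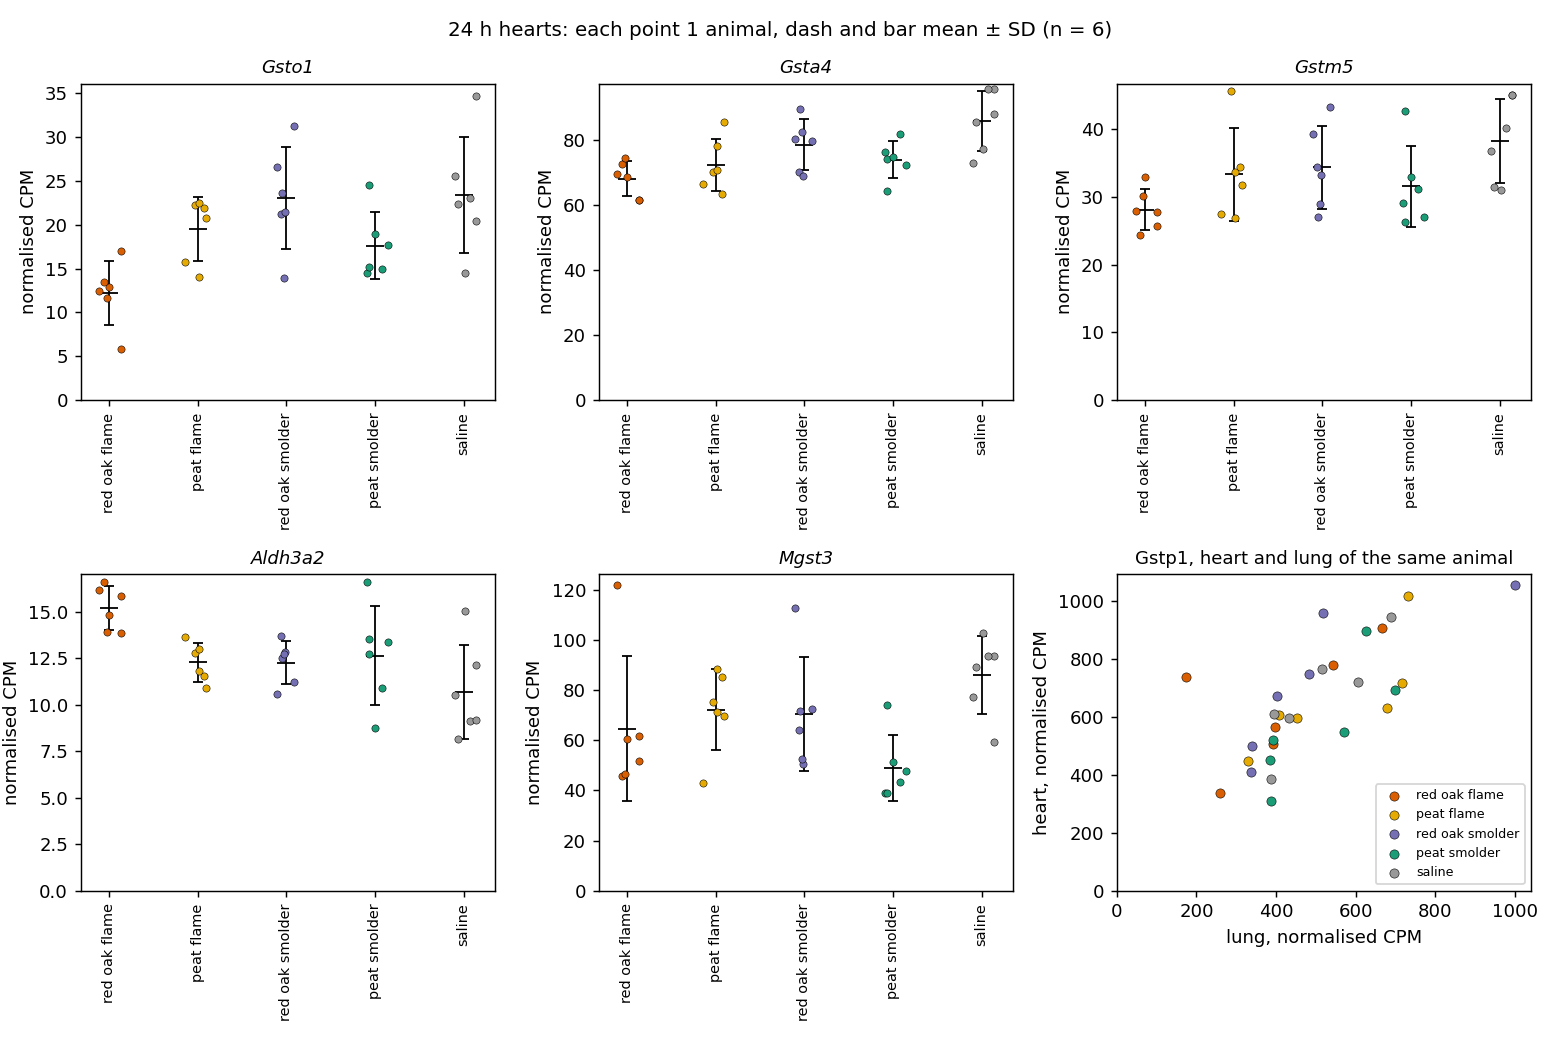
CPM per heart (points) for Gsto1, Gsta4, Gstm5, Aldh3a2 and Mgst3 in the smoke groups and in saline, with a dash and bar for mean ± SD (n = 6), and Gstp1 in the heart against Gstp1 in the lung of the same 30 animals. Gsto1 reaches 17 CPM after flaming red oak and 34.7 CPM after saline.

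Some genes that supply NADPH or the conjugating groups rose in the same hearts. After flaming red oak 4 of 9 cofactor genes were higher and 1 was lower. G6pdx, which makes NADPH, rose by 1.06 (adjusted p 0.00201), Papss2, which makes the sulfate donor, by 1.05 (0.00689), and Ugdh, which makes UDP-glucuronic acid, by 0.50 (0.00889). After smoldering peat 3 of 9 rose, G6pdx, Ugdh and Papss2. In the same flaming red oak hearts 4 of 5 fibroblast markers were higher, with sums of 1190 to 2530 CPM after smoke and 815 to 1070 CPM after saline. Endothelial markers were higher in 3 of 5, with sums of 313 to 483 CPM after smoke and 182 to 327 CPM after saline. Cardiomyocyte sums were 25600 to 31300 CPM after flaming red oak and 29100 to 35300 CPM after saline. In the smoldering peat hearts, where Mgst3 was lower, 2 of 5 fibroblast markers were higher, with sums of 1090 to 2070 CPM, above every saline heart. There 1 of 5 endothelial markers was higher, with sums of 283 to 420 CPM, and cardiomyocyte sums were 28600 to 31800 CPM. The part of these cells was not tested.

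The 2 tissues differed in most members, as they did in most genes. In saline animals at 24 h 20 of 52 members tested were higher and 25 lower in heart than in lung, where 34.8% of genes were higher and 41.7% lower. The median member difference was −0.72, beside −0.19 over all genes. These values use TMM factors, which ran from 0.723 to 0.834 in hearts and from 0.951 to 1.49 in lungs. Scaled by library totals alone, all log2 differences shift by a median of −0.67, and 14 members were higher and 29 lower. Members were kept by their level in lung or heart, so the direction of those that passed in 1 tissue alone was largely set by that rule. Among the lower members these were Aldh1a1, Aldh1a7, Aldh3b1, Aldh3b3, Gsta2, Mgst2, Sult1d1 and Ugt1a1, all under 1 CPM in heart. Among the higher members it was Sult6b2, under 1 CPM in lung. The CPM in the sentences on this comparison are on the scale shared by the 12 libraries.

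Among the aldehyde dehydrogenases 5 were higher and 10 lower in heart of 16 tested. The lower ones include Aldh1a1, Aldh1a7, Aldh3b1 and Aldh3b3, kept through lung alone, so the keep rule adds to that balance. The rise of Aldh9a1 was no longer called with library totals alone (0.01, edgeR adjusted p 0.991). Aldh6a1, which breaks down valine in mitochondria, had 259, 275 and 445 CPM in hearts, against 7.12, 22.3 and 37.4 CPM in lungs (3.81 ± 0.35, edgeR adjusted p 2.09e-07). Aldh1b1 had 37.7, 40.9 and 43.5 CPM in hearts, against 5.49, 12.8 and 17.1 CPM in lungs (1.76 ± 0.26, 2.23e-05). Neither gene's values overlapped between the tissues, and Aldh4a1 and Aldh5a1, of proline and GABA breakdown, also had all 6 hearts above all 6 lungs. Aldh1a1 had 0.441, 0.892 and 1.35 CPM in hearts, against 13.7, 21.4 and 28.9 CPM in lungs (−4.59 ± 0.33, 1.14e-08). Aldh1a7 had no count in 4 of 6 hearts and at most 1.5 CPM in the others, against 23.8, 51 and 56.1 CPM in lungs (−7.13 ± 0.66, 1.86e-07). Aldh3a2 had 9.79, 11.8 and 18 CPM in hearts, against 49.2, 87.3 and 172 CPM in lungs (−2.83 ± 0.31, 1.16e-06). Aldh3b3 was lower by −3.79 ± 0.39 (6.06e-07). The near copies Aldh1a7 and Aldh1a1 share 7.49% of the 50-base windows of Aldh1a7. Aldh2 was likewise below every lung in all 6 hearts, with 174, 264 and 323 CPM in hearts, against 526, 1133 and 2196 CPM in lungs.

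The aldo-keto reductases showed the opposite balance in 2 members of the B family. Akr1b3, aldose reductase of the polyol pathway, had 225, 255 and 330 CPM in hearts, against 8.25, 21.8 and 28.8 CPM in lungs (3.66 ± 0.28, adjusted p 2.67e-08). Akr1b10 had 249, 307 and 335 CPM in hearts, against 55.5, 68.1 and 108.9 CPM in lungs (2.04 ± 0.19, 2.14e-07). Their relative Akr1b8 had 6.5, 8.21 and 11.3 CPM in hearts, against 8.62, 16.6 and 31.1 CPM in lungs, and was lower in heart (−1.08, 0.00301). Of 8 tested 3 were higher and 3 lower. With library totals alone Akr1e1 was no longer called higher (0.59, edgeR adjusted p 0.191) and Akr7a5 was called lower (−0.93, 0.0221).

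Of 19 glutathione S-transferases 9 were higher and 6 lower in heart, a balance that depended on the scaling. Gsta2, and Mgst2 among the microsomal enzymes, were kept through lung alone, so the keep rule largely set their direction. Scaled by library totals alone, Gsta1, Gstk1 and Gstm2 were no longer called (edgeR adjusted p 0.155, 0.557 and 0.896). Gstm3, Gsto2 and Gstz1 were then called lower (0.000678, 0.00125 and 0.00104). The mu enzyme Gstm5 had 37.1, 45.9 and 54.1 CPM in hearts, against 0, 1.07 and 2.61 CPM in lungs (5.23 ± 0.58, adjusted p 1.23e-06), and Gstm7 and Gstm1 were higher by 3.16 (1.48e-06) and 1.77 (7.5e-06). The alpha enzymes went both ways. Gsta4 was higher in heart by 1.37 (5.29e-06), while Gsta2 and Gsta3 were lower by −5.31 (1.21e-05) and −1.86 (3.7e-05). All 3 theta enzymes lay below every lung in all 6 hearts. Gstp1 had 461, 798 and 1128 CPM in hearts, against 284, 354 and 529 CPM in lungs (1.08, 0.000614), a call that ended when library totals alone were used (0.44, 0.071). Of the microsomal enzymes Mgst3 was higher by 1.42 (0.00162) and Mgst2, with 0, 0.208 and 0.642 CPM in hearts, against 3.81, 7.37 and 9.95 CPM in lungs, was lower by −4.70 ± 0.48 (4.58e-07), as was Mgst1 by −1.80 (0.000709).

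All 3 glucuronosyltransferases tested were lower in heart. They are of the single Ugt1a locus, and the direction of Ugt1a1, kept through lung alone, was largely set by the keep rule. Ugt1a6a had 2.03, 3.77 and 5.66 CPM in hearts, against 25.8, 31.2 and 35.4 CPM in lungs (−3.02 ± 0.24, adjusted p 4.51e-08), and Ugt1a7c was lower by −2.79 (3.93e-06). Of the 3 sulfotransferases tested Sult1d1 was kept through lung alone and Sult6b2 through heart alone. The keep rule largely set their directions, so no family pattern is read from them. Sult1d1 had no count in any of the 6 hearts, against 2.97, 6.65 and 28.8 CPM in lungs. A floor of 3 counts over the 6 hearts is 0.099 CPM. The lung mean of 10.9 CPM lay 110-fold above that floor, for counting error only. The spread among the lungs is not part of that value, and the lowest and median lungs lay nearer to the floor. Sult6b2 had 4.1, 7.2 and 17.4 CPM in hearts and no count in 5 of 6 lungs, with 0.124 CPM in the other. Sult1a1 had 124.9, 157 and 209 CPM in hearts, against 15.7, 34.4 and 63.2 CPM in lungs (2.14, 1.61e-05).

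**Figure D5:**
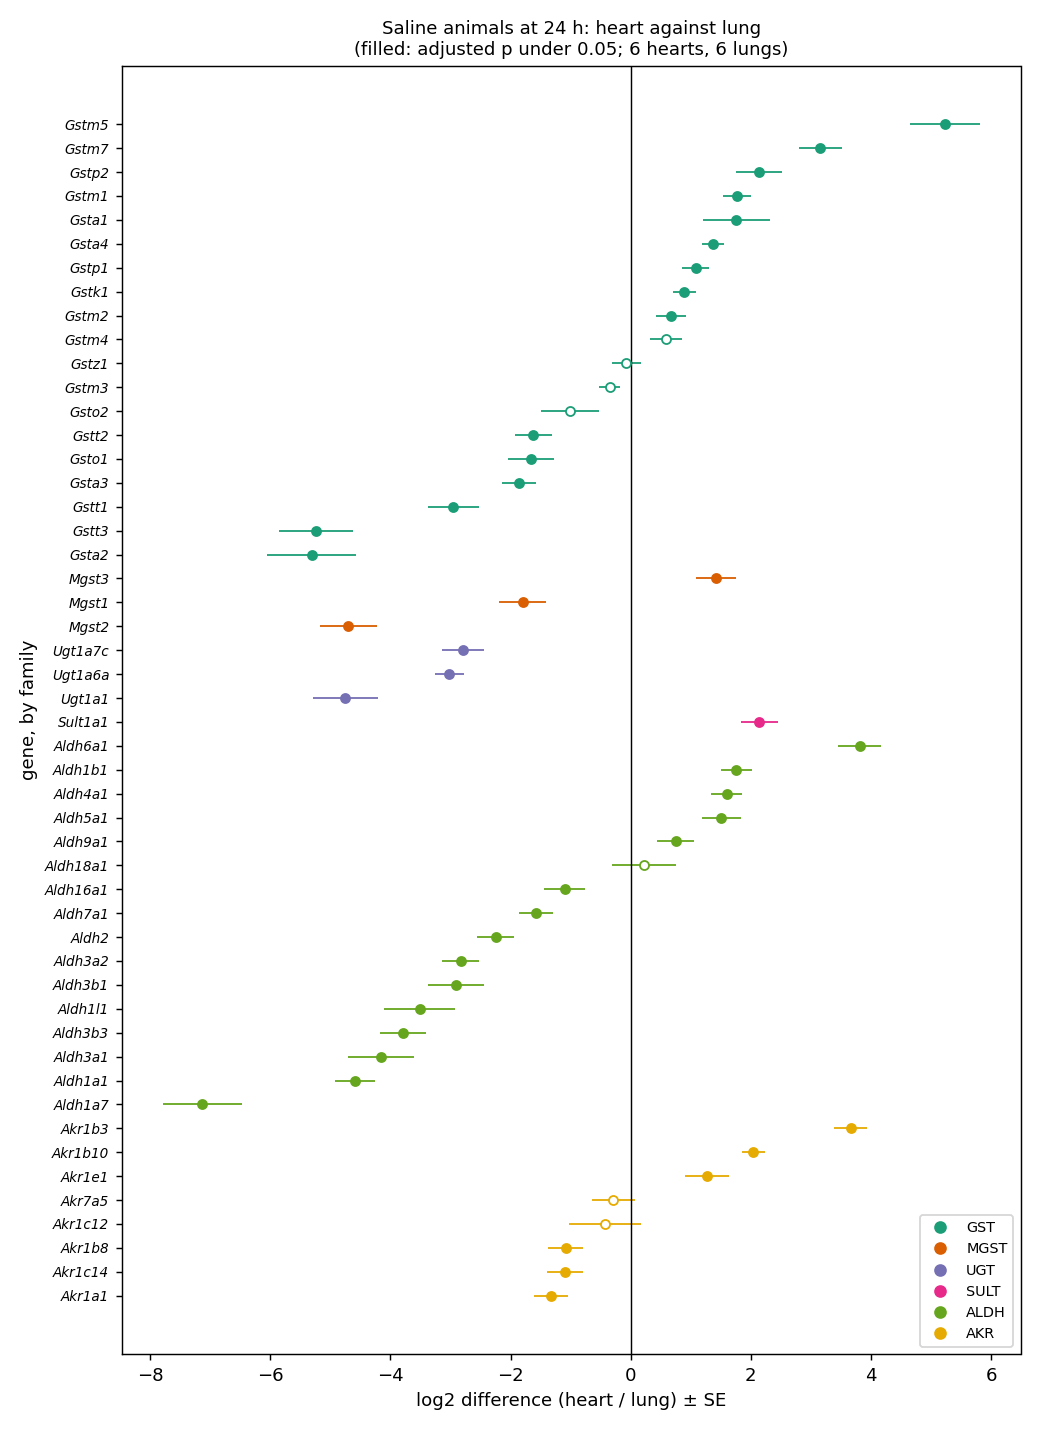
Log2 difference of heart over lung (points, with SE bars) in saline animals at 24 h by family, filled where the edgeR adjusted p was under 0.05, for the members tested other than Sult1d1 and Sult6b2, which were at or near 0 in 1 tissue. Aldh1a7 lies farthest toward lung at −7.13 and Gstm5 farthest toward heart at 5.23.

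Hearts and lungs came from the same 30 animals, so each member could be followed from one organ to the other within an animal. Over the 44 members present in both tissues the median Spearman rho was 0.06, and 2 members passed in both measures after Benjamini-Hochberg adjustment over the 44 members within each measure. Gstp1 in heart tracked Gstp1 in lung with a Pearson r of 0.64 (permutation p 0.00015, adjusted 0.0033) and a Spearman rho of 0.77 (permutation p 1e-05, the smallest that 100000 permutations can give, adjusted 0.00044). Without the 2 animals farthest from the median the r was 0.79 (n = 28), after subtracting each group's mean it was 0.69, and within the 25 animals with lungs on plate 2 it was 0.59. Akr1e1, a reductase of anhydrofructose, had an r of 0.79 (adjusted 0.00044) and a rho of 0.59 (adjusted 0.0129), with an r of 0.56 without the 2 farthest animals. Aldh4a1 passed by rank alone, with a rho of 0.61 (permutation test, adjusted 0.00946) and an r of 0.11 (adjusted 0.99). Without the 2 farthest animals its r was 0.77. The scatter of Gstp1 by animal shows the relation.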

How the data were processed

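Gene expression was measured in 140 lungs of as many animals by the titles and in the hearts of 30 of these animals. The authors deposited raw counts per probe. Per the labels' protocols the assay was TempO-Seq, while a QuantSeq 3′ kit is also named, so the sources disagree on the library chemistry. Bowtie and DESeq2 are named, without versions, per the submitters' processing notes, and the genome build is not given in the sources used here. All sample columns of the table were used.

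Probe counts were summed by symbol. The test was the quasi-likelihood F test of edgeR 4.0.16 under R 4.3.3, with TMM factors, filterByExpr and a robust fit on trended dispersions, in 1 fit of all lungs with group and plate terms, 1 of all hearts with group terms, and 1 of saline hearts and lungs. Benjamini-Hochberg adjustment ran over all genes tested (14458 in lung, 11179 in heart, 11821 for heart against lung), and a member was called at an adjusted p under 0.05. An SE is the log2 difference over the square root of its F. CPM use TMM factors within a tissue unless said otherwise. The scripts were tested on simulated data.

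The members, gene lists and tests were chosen with earlier results of these data known. Named are all called members of a comparison with 10 or fewer, otherwise the 10 with the smallest p, for a smoke without calls the 2 with the smallest p, the 2 of highest mean CPM in lung of a family without calls, and a fixed list, with up to 3 called genes per pathway list. Other members named were chosen after their values were seen.

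Alternatives were DESeq2 1.42.0, its size factors in edgeR, each probe alone, no count filter, no plate term, leaving out lungs of under 13000 detected genes, that number as a covariate, each time alone, 1 plate per time, leaving out each saline or LPS library (with the dispersion trend and gene filter of all libraries), and the animal as a block in heart against lung, where the same 6 animals gave both tissues. The deviations of an animal's heart and lung from their group means correlated at −0.041 to 0.138 across genes. Scaling by library totals alone was added after seeing the data.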

Additional observations from a re-analysis of the deposited data

Results flagged for a closer look

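In 12 instances, 10.6% of the groups looked at for the named members, a library stood apart from the rest of its group by a gap test that chance alone passes in about 1 of 20 groups. Saline replicate 1 of the 4 h lungs did so for 4 members: Gsto1 with 180 CPM and 21 to 29.8 CPM in the other 5, Gstz1 with 174 CPM and 60.5 to 72.7 CPM, Gsto2 with 27.3 CPM and 3.61 to 7.29 CPM, and Gsta1 with 4.005 CPM and 0.314 to 1.39 CPM. All 10 smokes and LPS at 4 h are set against this saline group.

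The other lungs that stood apart were LPS replicate 4 at 4 h for Akr1b8 with 184 CPM (the others 80.8 to 96.1 CPM), smoldering eucalyptus replicate 2 at 4 h for Aldh1a2 with 5.34 CPM (0.675 to 2.31 CPM), and 4 saline lungs at 24 h. These were replicate 2 for Gstm3 with 371 CPM (516 to 546 CPM), replicate 3 for Sult6b2 with 0.169 CPM (0 in the others), replicate 4 for Aldh8a1 with 4.05 CPM (0.743 to 1.71 CPM) and replicate 5 for Ugt8a with 9.29 CPM (1.95 to 3.72 CPM). In hearts smoldering peat replicate 2 stood apart for Mgst3 with 73.9 CPM (38.9 to 51.3 CPM) and saline replicate 1 for Aldh1a7 with 1.25 CPM (0 to 0.311 CPM).

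In 12 of 915 pairs of groups every exposed animal lay on one side of its saline mean in the one group and on the opposite side in the other. None of these differences was tested for the pair itself. Of the 12 pairs 7 were flaming pine needles at 4 h and at 24 h. Akr1a1 averaged 166 CPM after this smoke and 111.1 CPM after saline at 4 h, and 114.5 CPM and 178 CPM at 24 h. Gstt1 had 105.7 CPM after smoke and 63.3 CPM after saline at 4 h, and 52.9 CPM and 94.2 CPM at 24 h, and Gstt2 had 37.5 and 26.8 CPM at 4 h and 30.1 and 38.4 CPM at 24 h. The reverse order held for Sult1a1, with 64.9 CPM after smoke and 113.5 CPM after saline at 4 h and 115.9 and 49.3 CPM at 24 h, and for Ugt1a7c, with 53.9 and 84.7 CPM at 4 h and 62.6 and 49 CPM at 24 h. It also held for the low counts of Aldh1a2, with 2.37 CPM after smoke and 6.51 CPM after saline at 4 h and 3.83 and 2.25 CPM at 24 h, and of Gstm5, with 2.41 and 3.58 CPM at 4 h and 3.76 and 1.54 CPM at 24 h.

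Aldh1b1 gave 2 of the pairs. After smoldering eucalyptus it averaged 14 CPM against 9.01 CPM in saline lungs at 4 h, and 4.38 CPM against 16 CPM at 24 h. After flaming red oak it averaged 59.5 CPM against 34.1 CPM in saline hearts, and 4.62 CPM against 16 CPM in saline lungs at 24 h. Gsta1 averaged 3.94 CPM after LPS against 1.38 CPM after saline at 4 h, and 0.47 CPM against 1.37 CPM at 24 h. After smoldering red oak Gsta2 averaged 0.959 CPM against 0.453 CPM in saline hearts, and 14.4 CPM against 28.9 CPM in saline lungs. After the same smoke Gstm2 averaged 250 CPM against 327 CPM in saline hearts, and 437 CPM against 328 CPM in saline lungs.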

How the results depend on the processing

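Calls in lung depended on the processing, while the directions of the named differences did not. Of 1217 repeats of single results 1090 kept their side of the threshold, 24 gained a call, 0 turned round and the others lost theirs. The tests among the 10 smokes have no direction, so their repeats could not turn round. Many repeats were of members without a call that stayed without one. Member counts under other settings, here and above, are given without the share of all genes called under the same setting. They show how far the count moves and are not read as a trait of the members. Over the 10 smokes at 4 h the 0 member calls became 4 with DESeq2, 1 with its size factors, 3 without the lungs of few detected genes, 9 with detected genes as a covariate, 7 with each time alone, 6 with 1 plate per time, and 0 to 3 when a saline library was left out. Over the 10 smokes at 24 h the 1 call became 8 with DESeq2, 3 with its size factors, 6 without the lungs of few detected genes, 0 with each probe alone, no filter, the covariate, each time alone or 1 plate per time, and 0 to 2 with a saline library left out. Some of the DESeq2 calls in lung were of Sult6b2, which averaged 0.0778 CPM there and was not tested by edgeR. Flaming against smoldering at 4 h moved from 2 calls to 6 without the lungs of few detected genes and to 8 with the covariate, each time alone or 1 plate per time. Among the smokes the 4 h count of 1 became 2 with DESeq2, without those lungs or with the covariate, 4 with each time alone and 3 with 1 plate per time, and the 24 h count of 11 became 6 without those lungs and 0 with the covariate, each time alone or 1 plate per time.

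LPS at 4 h had 4 calls, then 9 without the lungs of few detected genes or with the covariate, 8 with each time alone or 1 plate per time, and 2 to 6 with a library left out. LPS at 24 h had 9 calls, then 15 with the covariate, 4 with each time alone, 0 with 1 plate per time, and 1 to 11 with a library left out. The heart smokes had 5 calls, then 8 with DESeq2, 3 without a filter and 2 to 5 with a saline heart left out. Heart against lung had 45 calls, and 44 to 47 with a library left out. With the animal as a replicate block it also had 45, and the block changed no call of the 10 members named there. With library totals alone, an alternative chosen after seeing the data, it had 43, of which 14 were higher and 29 lower in heart. The cause of these changes was not tested. No member was called in the mean of the 10 smokes at either time, in the phase comparison at 24 h or in the time comparison under any alternative run. Depth limits the members of a few CPM, such as Ugt8a, Gsta1 and Aldh1b1, where a value rests on few counts.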
